A study of Canis lupus familiaris with 6 samples.

Results

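Transcripts of 8 genes that start or restrain blood clotting at the cell surface, or that control the making of plasmin, were followed in MDCKII cells grown as cysts (3D) or as a flat layer (2D). The genes were F3 (tissue factor), TFPI, TFPI2, THBD, PLAU, PLAUR, PLAT and SERPINE2. Members were found as probe sets whose single gene symbol in the platform annotation is one of these names. This gave 13 of 42924 probe sets and 7 of the 8 genes. F3, TFPI, TFPI2 and THBD had 2 probe sets each, SERPINE2 had 3, and PLAU and PLAT had 1 each. No probe set matched PLAUR, the urokinase receptor, which is not analysed here. The set was selected on earlier results of these arrays, among them the 3D minus 2D difference of F3 on replicates 2 and 3 and its sign in replicate 1. The members' differences, and the calls counted for them, are therefore a description and no test.

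MDCKII is an established epithelial line from dog kidney whose cells polarize in culture. In the 3D group (3 arrays) the cells lay on a thin bed of Matrigel, a basement membrane extract, with 100 µl per 60 mm dish and 2% Matrigel in the medium, and formed cysts. In the 2D group (3 arrays) they formed a polarized monolayer on plastic without Matrigel. Both groups were of the same line and were taken 36 h after plating, so the comparison asks which transcripts differ when the cells build cysts. Matrix and culture shape changed together, and their parts cannot be told apart. The labels call the replicates biological without saying which cultures they came from, so p-values measure the spread between these samples. Each array reads RNA from a whole dish, where fewer cells of a type and less RNA per cell cannot be told apart.

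Tissue factor is a membrane receptor that binds coagulation factor VIIa and thereby starts the clotting cascade; it also signals into the cell. TFPI, a protein built of Kunitz domains, blocks the tissue factor complex, and thrombomodulin turns thrombin towards the activation of protein C. Urokinase (PLAU) and tissue-type plasminogen activator (PLAT) cut plasminogen to plasmin, which dissolves fibrin and degrades matrix, while serpins such as protease nexin-1 (SERPINE2) trap these enzymes. Kidney tubule epithelium is a known source of urokinase, which is found in urine.

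Values are log2 levels per probe set. The 4 arrays of replicates 2 and 3 had medians of 7.06 to 7.08 and correlated across probe sets with Pearson's r of 0.982 to 0.997. The replicate 1 arrays had medians of 5.26 in 3D and 5.42 in 2D, and r with the other 4 was 0.861 to 0.872. Their scale is not that of the other arrays, so 3D was compared with 2D within each scale: by limma on replicates 2 and 3 (n = 2 arrays per group), and as a single untested difference in replicate 1. Poly-A spike-in controls averaged 8.49, 9.83 and 8.98 on 3D replicates 1, 2 and 3, against 7.66, 8.81 and 8.86 on the 2D arrays of the same numbers, and the part of this in the results was not tested. All 6 epithelial markers looked at (CDH1, EPCAM, KRT8, KRT18, CDH16 and PAX8) lay above the lower quartile of all 4 arrays of replicates 2 and 3. Of 12 fibroblast, endothelial and leukocyte markers 3 lay below it on all 4, and 0 of the 18 markers passed the limma threshold (0 also at an unadjusted p under 0.05). The endothelial marker CDH5 read 8.34 to 8.47 on these 4 arrays, above their medians, so the marker levels do not separate cell types.

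On replicates 2 and 3 the F3 level was far lower in cysts, the difference on which the set was selected. There the other measured members lay much closer to their monolayer levels. In replicate 1 the other members ranged from -1.23 (PLAU) to 1.03 (first TFPI probe set), against -2.28 and -1.74 for F3. In the limma fit 2 of the 13 member probe sets, both of F3, were called lower in 3D and 0 were called higher. The differences of the other 11 lay between -0.39 and 0.535 on the log2 scale. Across all probe sets, 2.96% were called lower in 3D and 3.65% higher (limma adjusted p under 0.05). At an unadjusted p under 0.05 the same 2 were lower and 2, both of THBD, were higher, where 11.8% and 11.6% of all probe sets were. The members' median difference was -0.075, against -0.005 over all probe sets. Because this contrast was known when the members were chosen, nothing is read from these counts.

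The first F3 probe set, the brighter of the pair, had log2 levels of 11.29 and 11.91 in 3D replicates 2 and 3, against 13.58 and 13.33 in 2D replicates 2 and 3. Both cyst arrays thus lay below both monolayer arrays, with 1.42 log2 units of clear space between the groups, although the 3D arrays differed from each other by 0.62. The group means were 11.6 ± 0.438 in 3D and 13.455 ± 0.177 in 2D (SD, n = 2 arrays each), a log2 difference of -1.855 (limma SE 0.215), or a level 3.62-fold lower in 3D. In replicate 1 the same probe set read 9.44 in 3D and 11.72 in 2D, a difference of -2.28 on that scale.

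The second F3 probe set had log2 levels of 8.78 and 8.89 in 3D replicates 2 and 3, against 11.25 and 11.03 in 2D. Here the cyst arrays were within 0.11 of each other and 2.14 below the lower monolayer array. The difference was -2.305 (limma SE 0.119, n = 2 arrays per group), a level 4.94-fold lower in 3D, and replicate 1 gave 7.72 in 3D and 9.46 in 2D, a difference of -1.74. The probe sets ordered differently on the 2 scales: the second showed the larger fall on replicates 2 and 3 by 0.45, and the first the larger difference in replicate 1 by 0.54. Counted from the lowest of 42924 differences, the first and second stood at 24 and 6 on replicates 2 and 3. In replicate 1 they stood at 2136 and 3744, so far more probe sets fell as much there. All 6 F3 values of each probe set lay above the lower quartile of their arrays. With any 1 of the 4 arrays left out, or with replicate number as a block, 0 of all 42924 probe sets were called, so those fits say nothing about F3 in particular. Without 1 array the F3 differences were -2.165 to -1.545 and -2.415 to -2.195. Neither probe set changed sign in any of the alternatives. These reuse the arrays on which F3 was selected, so the kept sign is no further support.

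**Figure D1:**
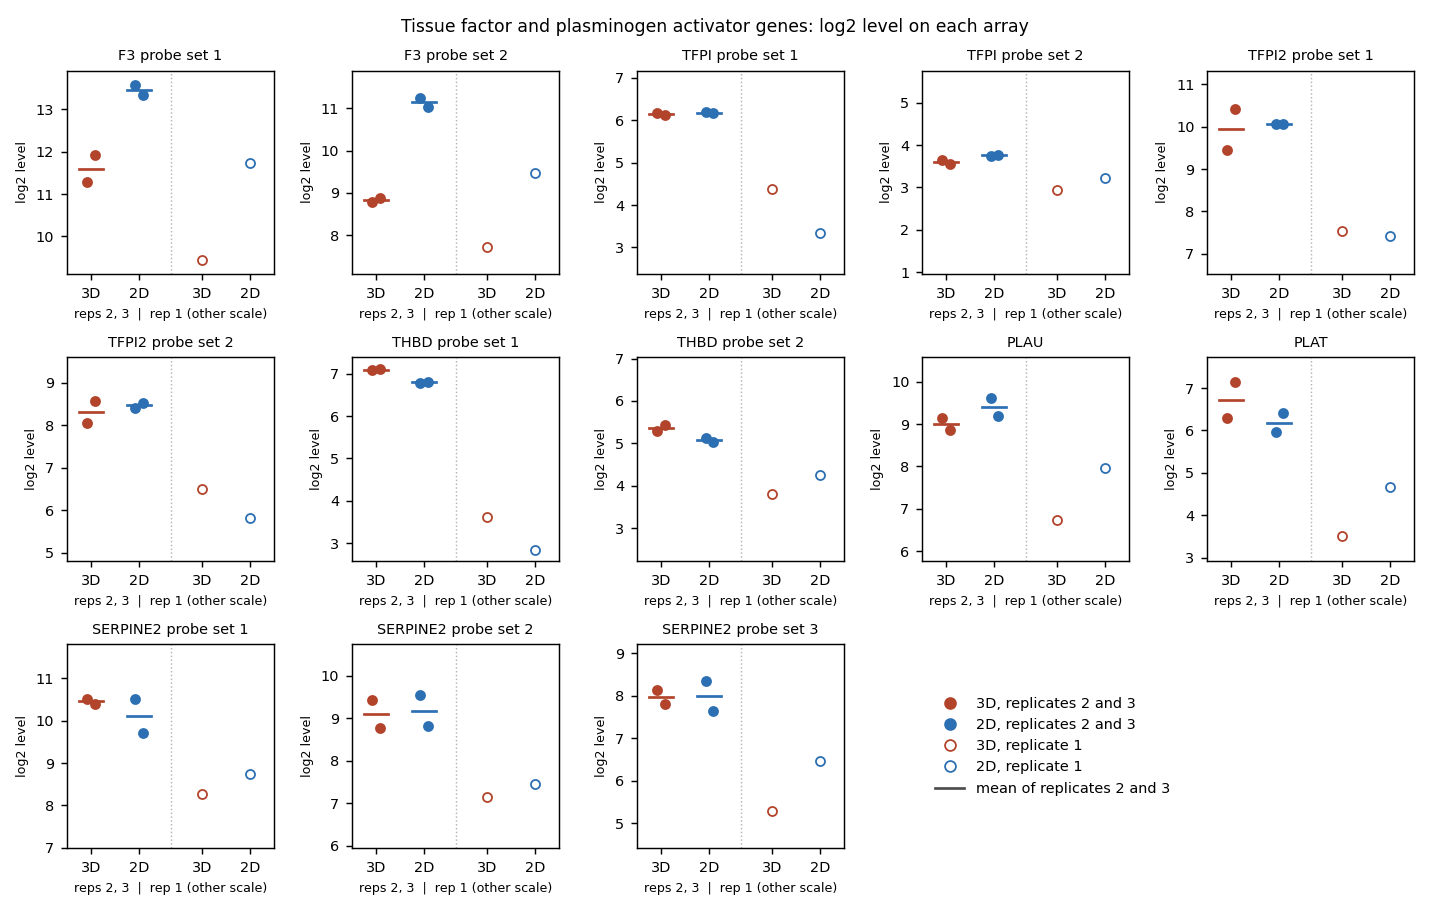
Log2 level of the 13 member probe sets on every array: filled points are replicates 2 and 3 with their mean as a line, open points to the right of the dotted line are replicate 1 on its other scale, 3D left of 2D in each pair. The F3 panels have both filled 3D points below both filled 2D points, by 1.42 and 2.14 log2 units. The filled points of the other panels show groups close together or overlapping.

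The inhibitors of tissue factor did not pass. TFPI, the main inhibitor of the tissue factor and factor VIIa complex, had log2 levels of 6.16 and 6.13 in 3D replicates 2 and 3, against 6.19 and 6.17 in 2D, on its brighter probe set. The 4 values spanned less than 0.1 and the groups were 0.01 apart, with a difference of -0.035 (limma SE 0.0969). In replicate 1 this probe set read 4.38 in 3D and 3.35 in 2D, a difference of 1.03, but the 2D value lay under the lower quartile of its array, 3.52, which leaves the size uncertain. In the fits of all 6 arrays the difference was positive, at 0.286 to 0.32. The second TFPI probe set lay below the lower quartile on all 6 arrays, with 3.64 and 3.56 in 3D replicates 2 and 3, against 3.75 and 3.77 in 2D. Its difference of -0.16 (limma SE 0.0992) is therefore of uncertain size, and in replicate 1 it was -0.29.

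TFPI2, a Kunitz inhibitor related to TFPI that acts on plasmin and other serine proteases, had 9.45 and 10.42 in 3D replicates 2 and 3, against 10.05 and 10.06 in 2D on its first probe set. One cyst array thus lay below both monolayer arrays and the other above them. The gap of 0.97 between the 3D replicates was reached by 0.282% of all probe sets, and the second TFPI2 probe set showed it in the same order, with 8.06 and 8.58 in 3D, against 8.42 and 8.52 in 2D. The differences of -0.12 (limma SE 0.295) and -0.15 (limma SE 0.180) were smaller than this spread. Their sign turned on which cyst array was kept: without 3D replicate 2 they were 0.365 and 0.11, and without 3D replicate 3 they were -0.605 and -0.41. Replicate 1 gave 7.53 in 3D and 7.42 in 2D on the first probe set, and 6.5 in 3D and 5.82 in 2D on the second.

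THBD encodes thrombomodulin, the thrombin receptor of the protein C pathway. Its first probe set read 7.08 and 7.11 in 3D replicates 2 and 3, against 6.79 and 6.80 in 2D. The groups did not overlap and each pair of replicates was within 0.03, for a difference of 0.30 (limma SE 0.0968) that did not pass. The second probe set gave a like difference, 0.285 (limma SE 0.108), with 5.3 and 5.44 in 3D, against 5.13 and 5.04 in 2D, but all 4 values were below the arrays' lower quartiles. In replicate 1 the probe sets went apart. The first read 3.61 in 3D and 2.85 in 2D, the 2D value below its array's lower quartile, and the second 3.81 in 3D and 4.26 in 2D.

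Of the 2 plasminogen activators, neither passed. PLAU, which encodes urokinase, had log2 levels of 9.14 and 8.87 in 3D replicates 2 and 3, against 9.61 and 9.18 in 2D. The cyst arrays lay below the monolayer arrays by only 0.04, less than the 0.27 between the 3D replicates or the 0.43 between the 2D replicates. The difference was -0.39 (limma SE 0.175, n = 2 arrays per group). Replicate 1 read 6.73 in 3D and 7.96 in 2D, a larger difference of -1.23. After F3 it is the member gene with the lowest difference on both scales, and it stayed below 0 in each alternative, from -0.67 to -0.175. Both THBD probe sets and the second TFPI probe set also kept their sign. The alternatives reuse the same arrays, so the kept sign is no further support.

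PLAT, the tissue-type activator, had 6.30 and 7.14 in 3D replicates 2 and 3, against 5.97 and 6.40 in 2D. The groups overlapped, since 3D replicate 2 lay below 2D replicate 3. The difference of 0.535 (limma SE 0.288) rested on 3D replicate 3, without which it was 0.115. In replicate 1 PLAT read 3.50 in 3D and 4.66 in 2D, a difference of -1.16 in the other direction. The 3D value lay just above the lower quartile of its array, 3.38, which leaves the size uncertain. With all 6 arrays in 1 fit the difference was -0.03 without a block or with the replicate block, and 0.121 when quantile normalized.

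SERPINE2, the serpin that inhibits thrombin, urokinase and plasmin, is read by 3 probe sets that varied more between the monolayer replicates than between the groups. On the first, 3D replicates 2 and 3 had 10.51 and 10.40, against 10.52 and 9.71 in 2D. On the second they had 9.44 and 8.78, against 9.54 and 8.83 in 2D. On the third they had 8.15 and 7.81, against 8.34 and 7.64 in 2D. Every probe set was thus lower on 2D replicate 3 than on 2D replicate 2, by 0.81, 0.71 and 0.70, gaps that 0.103%, 0.198% and 0.219% of all probe sets reached in 2D. All 3 were also lower on 3D replicate 3 than on 3D replicate 2, by 0.11, 0.66 and 0.34. Gaps of that size were reached in 3D by 61.5%, 1.98% and 15.8% of all probe sets. The probe sets read the same gene and are not independent. The 3D minus 2D differences were 0.34 (limma SE 0.254), -0.075 (limma SE 0.295) and -0.01 (limma SE 0.243), and all 3 took either sign depending on which array was left out, from -0.065 to 0.745, from -0.43 to 0.28 and from -0.36 to 0.34. In replicate 1 all 3 were lower in 3D, by differences of -0.47, -0.30 and -1.18.

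Counted over the 13 probe sets, the 3D and 2D values of replicates 2 and 3 did not overlap in 5 that were lower in 3D and 2 that were higher, and overlapped in 6. Among all probe sets 26.7% were lower and 25.1% higher without overlap. In replicate 1, 9 member probe sets were lower in 3D and 4 higher, where 55.9% and 43.4% of all probe sets were. Differences of at least 1 log2 unit in replicate 1 were found for 5 that were lower and 1 that was higher, against 19.7% and 14.3% of all probe sets. The median replicate 1 difference was -0.45 for the members and -0.14 for all probe sets. The sign in replicate 1 was that of replicates 2 and 3 in 7 of 13 member probe sets, among them both of F3 and that of PLAU. The sign of F3 in replicate 1 was part of the selection. The share of all probe sets with like signs was not counted, so nothing is read from this number.

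**Figure D2:**
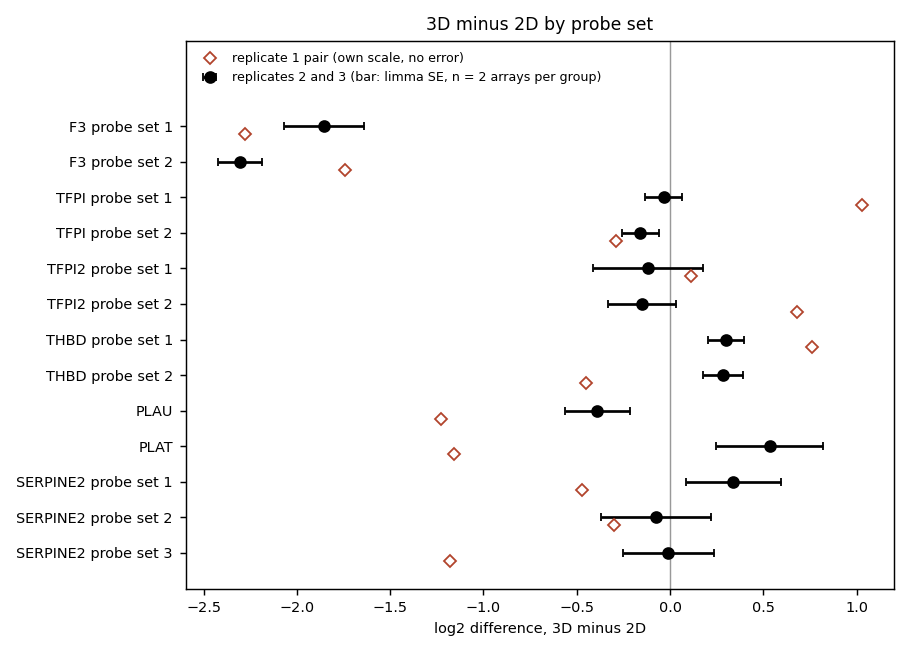
Log2 difference, 3D minus 2D, of each member probe set. Black points are replicates 2 and 3 with the limma standard error (n = 2 arrays per group), and open diamonds are the replicate 1 pair on its own scale, with no error; F3 stands at -1.855 and -2.305, and all other black points lie between -0.39 and 0.535.

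The 5 named genes whose array profiles lay nearest to that of F3 were TIMP3, CPNE8, ENTPD3, CCN2 and STK17A. Likeness was the root mean square difference from the brighter F3 probe set over the 6 arrays, after taking the mean of each scale from its arrays, and 14541 genes were compared. TIMP3, an inhibitor of metalloproteinases, was nearest at 0.128 log2 units, with 8.63 and 9.27 in 3D replicates 2 and 3, against 10.99 and 11.05 in 2D. It shared with F3, and with the others of the 5, the higher value of 3D replicate 3. The replicate 1 differences of TIMP3, -2.36, and CCN2, -2.24, were close to the -2.28 of F3. CPNE8, a copine, followed at 0.179, the ectonucleotidase gene ENTPD3 at 0.203, the matricellular gene CCN2 at 0.209 and the kinase gene STK17A at 0.232. The sixth gene stood at 0.242, and the median over the genes compared was 1.004. These genes were picked for this likeness, so their differences are no test of it.

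**Figure D3:**
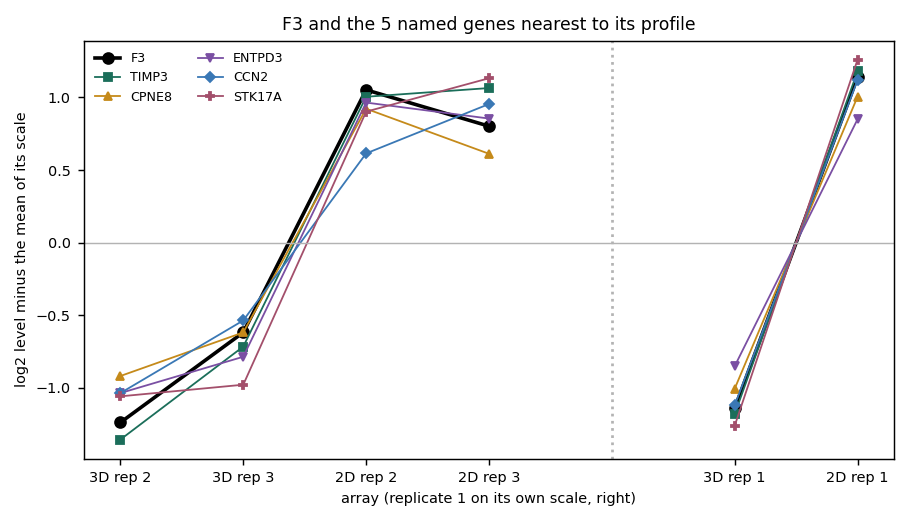
Log2 level minus the mean of its scale for the brighter F3 probe set (black) and the 5 genes nearest to it, with replicates 2 and 3 on the left and replicate 1 on the right of the dotted line. All 6 genes are low on the 3D arrays and high on the 2D arrays, and TIMP3, at a distance of 0.128, runs closest to F3.

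Other genes of the pathway were taken from 9 lists. Of 118 listed genes, 97 had a probe set. Of the 97, 3 passed as lower in 3D and 6 as higher, while 88 showed no call, against 3.09% lower and 4.2% higher over 15115 named genes. At an unadjusted p under 0.05 there were 32, of which 15 were lower and 17 higher, against 25.2% of all named genes in either direction. The median difference was 0, with genes on both sides, against -0.01 for all named genes. Of the 97, 12 lay below the lower quartile on all 4 arrays of replicates 2 and 3, against 1874 of 15115 named genes. Among the 12 were 4 of the rest of the plasminogen system, 4 of the coagulation cascade and 2 of the LY6/uPAR domain family. For such dim genes the size of a change is uncertain. The fits with 1 array left out or with the replicate block, which called 0 of all probe sets, could not single out any gene. With 1 array left out the 3 lower genes stayed between -1.28 and -0.495 and the 6 higher ones between 0.44 and 1.075. Of the 6 higher calls 5 were lost when the probe sets of each gene were averaged.

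In the rest of the plasminogen system, which includes plasminogen, its cell surface binders and its inhibitors, 0 of 16 measured genes passed by limma, 4 had an unadjusted p under 0.05, and the median difference was 0.0025. PLG itself differed by 0.115 (SE 0.104, limma adjusted p = 0.589) and SERPINB2, a serpin that inhibits urokinase, by 0.015 (SE 0.102, limma adjusted p = 0.959). The SERPINB2 probe set lay below the lower quartile of all 4 arrays, which leaves the size uncertain.

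Among 14 uptake receptors and partners of the urokinase receptor, 2 were higher and 1 was lower, with a median of 0.0375. At an unadjusted p under 0.05 there were 7, of which 4 were higher and 3 lower. VLDLR, a receptor that takes up urokinase bound to its inhibitors, rose, with 9.11 and 8.94 in 3D replicates 2 and 3, against 7.95 and 8.29 in 2D (0.905, SE 0.146, limma adjusted p = 0.0256). The replicate 1 difference went the other way, at -0.96. Averaged over its 3 probe sets VLDLR missed the threshold (0.528, limma adjusted p = 0.0557). LRPAP1, the chaperone of this receptor family, rose, with 11.98 and 11.57 in 3D, against 11.04 and 10.99 in 2D (0.76, SE 0.153, limma adjusted p = 0.0435, and 0.0777 averaged over its 2 probe sets), and its replicate 1 difference was 0.26. SRPX2, a secreted ligand of the urokinase receptor, fell, with 8.43 and 8.65 in 3D, against 9.50 and 9.32 in 2D (-0.87, SE 0.126, limma adjusted p = 0.0199), and replicate 1 differed by -2.09.

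In the coagulation cascade 1 of 17 genes was higher and 0 were lower by limma, 3 had an unadjusted p under 0.05, and the median was -0.01. GGCX, the carboxylase that makes clotting factors able to bind calcium, rose by 0.525 (SE 0.0971, limma adjusted p = 0.0354), with 9.85 and 9.86 in 3D replicates 2 and 3, against 9.31 and 9.35 in 2D. It missed the threshold averaged over its 2 probe sets (limma adjusted p = 0.0669) or with trend and robust priors (0.0557), and replicate 1 differed by -0.42. Of 6 anticoagulant genes, with a median of 0.045, 1 was higher and 0 were lower by limma, with 1 at an unadjusted p under 0.05. ANXA5, which covers phosphatidylserine on membranes, rose, with 12.08 and 11.80 in 3D, against 11.30 and 11.29 in 2D (0.645, SE 0.126, limma adjusted p = 0.0402, replicate 1 0.69). Averaged over its 3 probe sets it missed the threshold (0.25, limma adjusted p = 0.165), the other 2 of which read between 3.58 and 3.85, below the lower quartiles of these arrays.

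Of the 4 protease-activated receptors, through which thrombin and the tissue factor complex signal, 0 passed by limma (0 at an unadjusted p under 0.05), and the median was -0.0225. F2RL2 lay below the lower quartile on all 4 arrays of replicates 2 and 3, and F2RL3 on 3 of them. F2R, the thrombin receptor, differed by -0.215 (SE 0.110, limma adjusted p = 0.310) and F2RL1, cut by trypsin-like proteases, by -0.09 (SE 0.125, limma adjusted p = 0.742). Of 11 genes tied to tissue factor activity through phosphatidylserine exposure or disulfide exchange, 0 passed by limma, 3 had an unadjusted p under 0.05, and the median was -0.17. ANO6, a scramblase of membrane lipids, differed by 0.155 (SE 0.110, limma adjusted p = 0.474) and XKR8, another scramblase, by -0.025 (SE 0.104, limma adjusted p = 0.929).

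Among 9 membrane and related serine proteases and their inhibitors, 1 was higher and 1 lower, the same 2 that had an unadjusted p under 0.05, and the median was 0.065. HPN, the protease hepsin, rose by 0.51 (SE 0.104, limma adjusted p = 0.0452, replicate 1 0.44), but did not pass with arrays centred on their medians (limma adjusted p = 0.0513), with trend and robust priors (0.0567) or averaged over its 3 probe sets (0.295, limma adjusted p = 0.287). PRSS22, a tryptase known to activate pro-urokinase, fell, with 8.07 and 8.06 in 3D replicates 2 and 3, against 8.56 and 8.59 in 2D (-0.51, SE 0.0968, limma adjusted p = 0.0378, and 0.0510 with trend and robust priors). Its replicate 1 difference was 0.11. In the LY6/uPAR domain family, the relatives of the missing urokinase receptor, 1 of 7 was higher and 0 were lower by limma, 2 had an unadjusted p under 0.05, and the median was 0.04. CD59, which blocks the complement attack complex, rose by 0.695 (SE 0.121, limma adjusted p = 0.0312), with 10.53 and 10.28 in 3D, against 9.74 and 9.68 in 2D, and by 0.89 in replicate 1. It also passed averaged over its 2 probe sets (0.578, limma adjusted p = 0.0426).

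Of 14 transcription factors known to act on F3, PLAU or PLAUR, 1 passed as lower and 0 as higher by limma. At an unadjusted p under 0.05 there were 10, of which 5 were lower and 5 higher, against 25.2% of all named genes in either direction. The lists were chosen with earlier results of these data known, so nothing is read from this count. The list had a median of 0.195 on replicates 2 and 3 and -0.935 in replicate 1, against -0.01 and -0.11 for all named genes. A low replicate 1 median was not particular to it: the uptake receptors and partners had -0.8. KLF6, a Kruppel-like factor reported to act on the urokinase promoter, fell on both of its probe sets. The brighter one read 9.99 and 10.21 in 3D replicates 2 and 3, against 11.15 and 11.38 in 2D (-1.165, SE 0.133, limma adjusted p = 0.0128), and replicate 1 differed by -2.37. The other gave -1.125 (SE 0.149, limma adjusted p = 0.0166) and -1.55 in replicate 1.

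**Figure D4:**
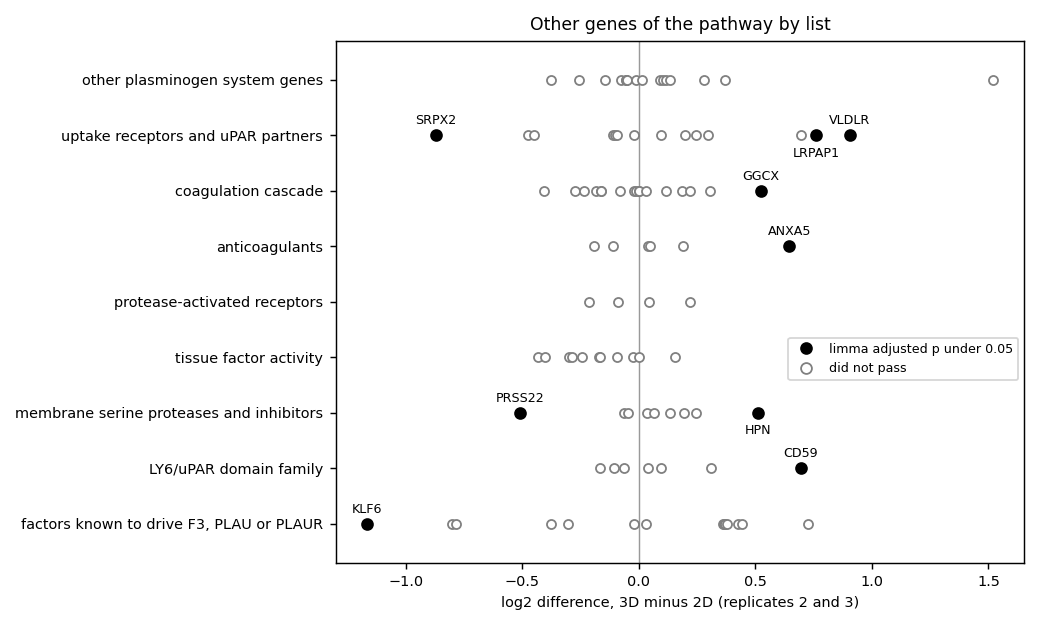
Log2 difference, 3D minus 2D on replicates 2 and 3, of the 97 other genes of the pathway by list, each gene by its brightest probe set and shown in every list that holds it. The 9 filled and named points passed the limma threshold, 3 lower in 3D with KLF6 lowest at -1.165, and 6 higher with VLDLR highest at 0.905; open points did not pass.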

How the data were processed

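Affymetrix canine arrays measured biotin-labelled cRNA made from 4 µg of Trizol-extracted total RNA, per the labels' protocols. The authors' deposited table holds log2 values for 43035 probe sets; RMA and limma are named in the submitters' processing notes, without versions, and how the replicate 1 columns came to another scale is not stated there or in the labels. The log2 base is inferred from RMA and from the spread of the values. The replicate 1 columns reach down to -3.32, with 413 values below 0 in 3D and 246 in 2D. The other 4 columns have minima of 3.39 to 3.44 and 0 values below 0. Whether RMA made the replicate 1 values is not known, so their base is less sure. The 111 control probe sets were left out, and no filter on level was set, since the table has no detection calls. Of 42924 probe sets, 29254 had 1 gene symbol in the platform annotation, 439 had several and 13231 are unnamed here.

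Replicates 2 and 3 were compared with limma 3.58.1 (lmFit and eBayes, R 4.3.3), with two-sided p-values adjusted by Benjamini-Hochberg over all 42924 probe sets, called under 0.05; the script was tested on simulated data. Lists use each gene's probe set with the highest mean over the 6 arrays. Members and lists were chosen with earlier results of these data known. The number of arrays limits the precision. Named list genes were those that passed, or the first 2 measured where none did. Joins and plots used Python 3.11.15, pandas 2.3.3, numpy 2.4.6 and matplotlib 3.10.9.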

Additional observations from a re-analysis of the deposited data

How the results depend on the processing

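On replicates 2 and 3, 2 member probe sets (both of F3) were lower in 3D and 0 higher, and 3 listed pathway genes were lower and 6 higher. With arrays centred on their medians, trend and robust priors, or without dim probe sets, the member counts stayed 2 and 0, and the listed genes numbered 2 to 3 lower and 4 to 6 higher. With the probe sets of each gene averaged, 3 were lower and 1 was higher. All calls of members and listed genes fell to 0 in the limma fits of all 6 arrays without a block, of all 6 quantile normalized, with the replicate block on replicates 2 and 3, and with the replicate block on all 6 arrays. At an unadjusted p under 0.05 these 4 fits had 1, 2, 5 and 2 member probe sets and 0, 7, 31 and 7 listed genes. Leaving out each of the 4 arrays in turn gave 0 to 0 calls for each count, with 3 to 6 member probe sets and 12 to 34 listed genes at an unadjusted p under 0.05. Over all 42924 probe sets these fits called 0, or 2 when quantile normalized, so the lost calls say nothing about single genes, and the cause was not tested. The deviations of same-numbered arrays of replicates 2 and 3 had a correlation of 0.00127 over all probe sets. This cannot show whether the samples were paired by number, which the labels do not say. The 9 listed genes that passed, and both F3 probe sets, kept their sign in every alternative run. These runs reuse the arrays on which the genes were picked, so the kept signs are no further support. There are 2 arrays per group on 1 scale, and dim probe sets of TFPI and THBD carry little signal.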

Other observations

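HABP2, a protease known to activate pro-urokinase, is named here after its values were seen. It had log2 levels of 7.20 and 6.01 in 3D replicates 2 and 3, against 5.13 and 5.04 in 2D, the 2D values lying below the lower quartiles of their arrays. The cyst arrays lay above the monolayer arrays and differed from each other by 1.19. The difference was 1.52 (SE 0.356, n = 2 arrays per group), of uncertain size because of the dim 2D values, and 0.925 without 3D replicate 2 or 2.115 without 3D replicate 3. It did not pass (limma adjusted p = 0.0634, and 0.0531 to 1 over the alternatives). Replicate 1 differed by 2.62, also of uncertain size, since its 2D value of 1.85 lay below that array's lower quartile, 3.52.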
